A study of Rattus norvegicus with 12 samples.

Results

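The genes described here are the ubiquitin-conjugating enzymes whose symbols start with Ube2 and the deubiquitinases whose symbols start with Usp and a number, as they were measured on 12 expression arrays of rat embryonic stem (ES) cells and round sperm cells. They were taken by symbol alone, from probe sets that name a single gene, and a gene with several probe sets was represented by the probe set with the highest mean signal over the 12 arrays. This gave 72 genes of the 14218 genes on the array, 29 with Ube2 symbols and 43 with Usp symbols, and together they had 135 probe sets. A further 8 probe sets named a member together with a near-identical gene (Ube2d2 with Ube2d3, Ube2e1 with Ube2e2, and Ube2v1l1 with Ube2v1) and were left out. One gene that meets the symbol rule, Usp6nl, encodes a GTPase-activating protein and is no deubiquitinase.

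Ubiquitin is passed from an E1 activating enzyme to an E2 conjugating enzyme, and an E3 ligase then directs it from the E2 to a substrate. The Ube2 genes encode the E2 enzymes and their relatives for ubiquitin-like modifiers, and the ubiquitin-specific proteases encoded by Usp genes remove ubiquitin or trim its chains. In the testis this system is known for its part in the remodelling of spermatid chromatin and in the disposal of proteins as spermatids shed their cytoplasm, and mice without Ube2b or without Ube2j1 have infertile males.

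All samples came from inbred DA (Dark Agouti) rats, with 3 biological replicates in each of 4 groups, each hybridised to its own Affymetrix Rat Genome 230 2.0 array. The lines RAH-6 and RAH-2, called RahES together, are haploid ES cells of androgenetic origin, that is, their genome derives from sperm only. DA5-3 is a diploid ES cell line. All 3 lines grew in N2B27 medium with 2i inhibitors, and the labels name no genetic modification or drug treatment for any group. The fourth group was round sperm cells, freshly isolated and not cultured, whose purification and donor age were not given in the sources used here. Each ES group is 1 line, and DA5-3 is the only diploid line, so ploidy, androgenetic origin and line cannot be told apart. The p-values below measure the spread between the replicates of these lines and of this isolation, and 3 arrays per group limit the precision.

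Signals are MAS5 signals on the linear scale, set to a trimmed mean of 500 on every array, and values under 100 are treated here as near background. The labels were checked against marker genes. All 9 round spermatid markers on the array were above 100 in every round sperm array, where their summed signal was 259229 to 281271, against 191 to 358 in the ES arrays. Of 6 pluripotency markers, 4 (Lin28a, Sall4, Sox2 and Tfcp2l1) were under 100 in every round sperm array, and all 6 were at or above 100 in every ES array. Klf4 did not fall, with 7280, 6273 and 6701 in round sperm cells. It had 3435 to 4319 in the RahES arrays and 5734 to 6672 in DA5-3. The 6 markers summed to 6521 to 7508 in round sperm cells, most of it from Klf4, against 24197 to 36387 in the ES arrays. Spermatocyte markers summed to 20457 to 23954 in round sperm cells with all 4 at or above 100, against 864 to 3478 in the ES arrays. Blood and macrophage markers summed to 1696 to 1902 in round sperm cells with Laptm5 and Ptprc under 100, against 369 to 828 in the ES arrays. Lyz2 (1086 to 1154), Cd74 (247 to 355) and Csf1r (134 to 180) were above 100 on every round sperm array. These genes were under 100 on every ES array. Leydig cell markers summed to 518 to 798 in round sperm cells with 2 of 4 at or above 100 on every array, against 75.4 to 147 in the ES arrays, where all 4 were under 100. Sertoli cell markers summed to 5945 to 6578 in DA5-3, 1400 to 1655 in RAH-6, 394 to 1524 in RAH-2 and 966 to 1114 in round sperm cells, with Amh under 100 in all of them. Most of the sum came from Vim in DA5-3 (5168 to 5724) and in RAH-6 (1059 to 1269). On every round sperm array Clu (272 to 330), Vim (389 to 464) and Wt1 (101 to 106) were above 100, while Gata4 and Inhbb were under it. Fibroblast markers summed to 28836 to 31797 in DA5-3, 2796 to 2814 in RAH-6 and 486 to 3145 in RAH-2, with the highest RAH-2 value in replicate 2. For Gapdh, the signal near the 3' end divided by that near the 5' end, a measure of RNA integrity, was 1.11 to 1.16 in RAH-6, 1.23 to 1.29 in RAH-2, 1.35 to 1.69 in DA5-3, highest in replicate 1, and 1.78 to 2.48 in round sperm cells. The same ratio for actin was 2.94 to 3.28 in RAH-6, 3.99 to 4.93 in RAH-2, 4.62 to 8.54 in DA5-3 and 3.62 to 4.72 in round sperm cells. Without RAH-2 replicate 2, DA5-3 replicate 1 and round sperm replicate 1, 40 of the 41 calls against ES cells reported below were kept, all but Ube2ql1. This round sperm array had the highest actin ratio of its group (4.72). By the Gapdh ratio round sperm replicate 3 was highest (2.48), and without that array alone all 41 were kept. The part of the other differences in these measures was not tested. In bulk RNA of this kind, fewer cells of a type and less RNA per cell cannot be told apart.

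Round sperm cells and ES cells differed widely in the signals of these genes, in both directions and within the same families. Ube2d2b, Ube2u, Usp2 and Usp44 were near background in all ES arrays and had strong signals in round sperm cells, and Ube2j1 and Usp12 also rose steeply. Usp33, Ube2d1 and Usp3 showed the opposite, with strong signals in ES cells and values near or under 100 in round sperm cells. Usp48 did so in 1 of its 2 probe sets but not in the other, and Ube2g2 rose steeply in only 1 of its 2. Of the 72 genes, 68 reached a signal of 100 in at least 3 arrays and were tested with limma. Of these, 20 were higher in round sperm cells and 21 were lower at an adjusted p below 0.05 and a change of at least 1 on the log2 scale, and 27 did not pass. Over all 10529 genes tested, 28.9% passed as higher and 43.4% as lower, against 29.4% and 30.9% of the 68. Here the ES value is the mean of the 3 lines with equal weight. The median log2 difference, round sperm cells minus ES cells, was -0.07 for the 68 genes and -0.59 for all genes. The rises and falls were spread over both families, with 8 higher and 8 lower of 29 Ube2 genes and 12 higher and 13 lower of 39 Usp genes. The remaining 4 genes, Usp13, Usp29, Usp31 and Usp49, had a highest single signal of 124 (Usp29, round sperm replicate 1) and were not tested.

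**Figure D1:**
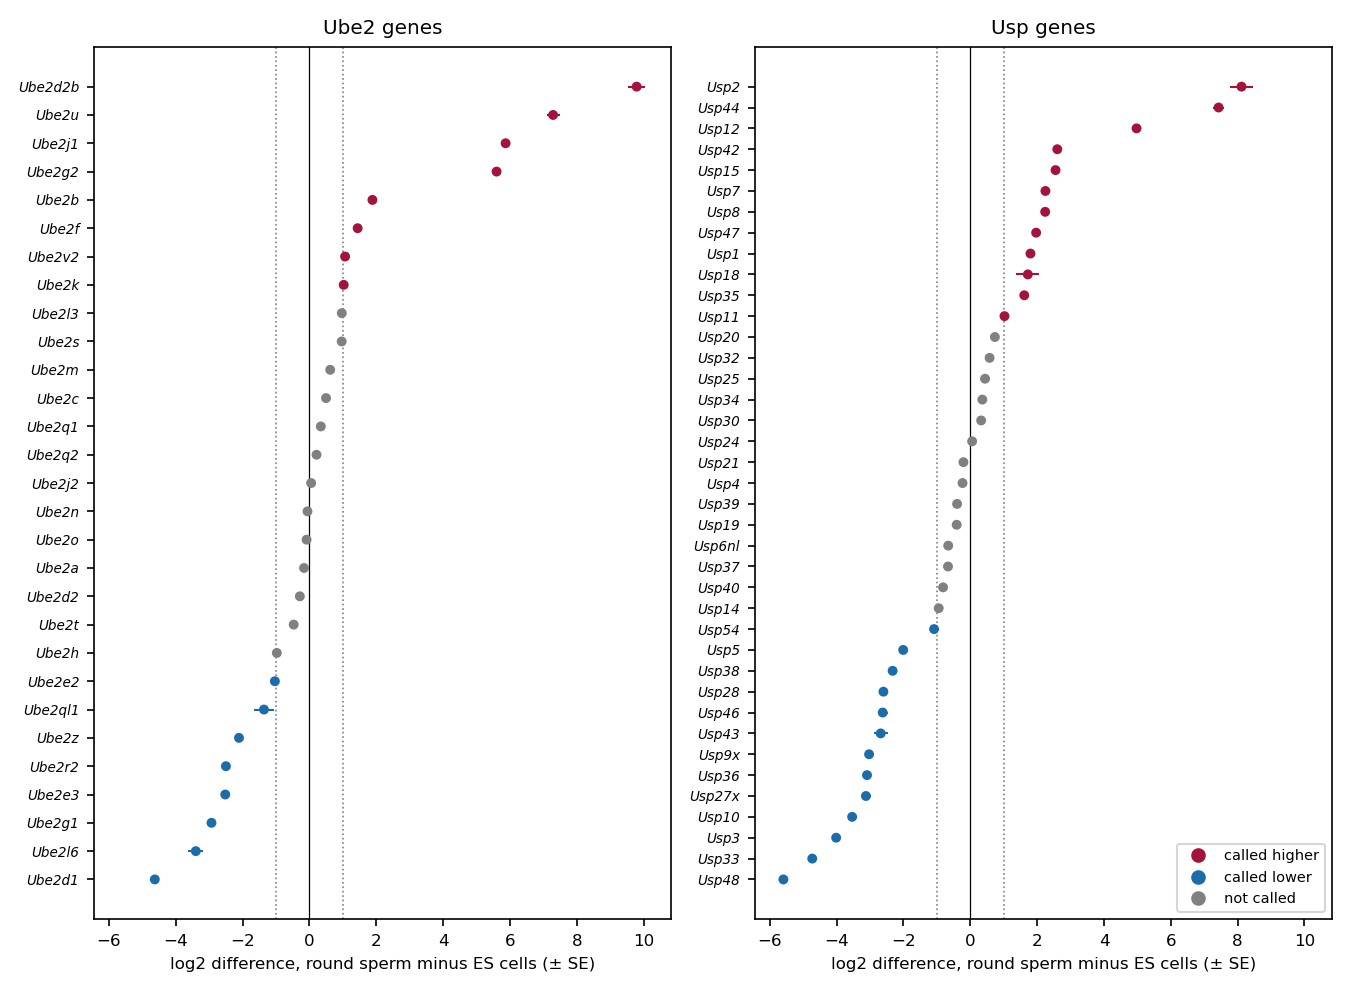
Log2 difference in signal (round sperm cells minus the mean of the 3 ES lines) for the 68 tested genes, Ube2 genes and Usp genes apart, with bars of 1 standard error and with called genes coloured. The values run from -5.59 for Usp48 to 9.79 for Ube2d2b, and the sizes for genes near background in one group depend on the offset of 16 added before the logarithm.

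Among the conjugating enzymes, Ube2d2b, a close relative of the broadly acting E2 Ube2d2, gave signals of 20549, 21667 and 20629 in the round sperm replicates. Over the 9 ES arrays its lowest, median and highest signals were 1.09, 6.42 and 19.4. No ES array came near the round sperm arrays, and the signal was at least 209-fold higher in round sperm cells (adjusted p = 2.54e-14). Ube2u gave 4051, 3917 and 4618 in round sperm cells, against 2.66, 9.40 and 25.4 as the lowest, median and highest of the ES arrays. It too was near background in every ES array, and was at least 41.85-fold higher in round sperm cells (adjusted p = 4.99e-14). These bounds set the geometric mean of the higher group against a signal of 100, and they are used wherever every array of one group was under 100.

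Both of the E2 enzymes best known for protein quality control at the endoplasmic reticulum also passed as higher, Ube2g2 in 1 of its 2 probe sets. Ube2j1, which is anchored in that membrane, gave 16241, 18085 and 18292 in round sperm cells. Its ES arrays ran from 261 over a median of 275 to 341, so that it was detected in every ES array at a low level. The difference was 5.87 ± 0.07 on the log2 scale (standard error, 3 against 9 arrays, adjusted p = 1.2e-17). The brighter probe set of Ube2g2 gave 4601, 4403 and 5330 in round sperm cells and 38.0, 85.2 and 131 as the lowest, median and highest in ES cells. All 3 RAH-6 arrays exceeded 100 while all RAH-2 and DA5-3 arrays were under it, and the log2 difference between round sperm and ES cells was 5.60 ± 0.14 (adjusted p = 2.8e-14), a size that depends on ES signals near background. Its other probe set was well above 100 in both groups, with 1092, 1022 and 1013 in round sperm cells and 501 to 672 in ES cells, and differed by 0.81 ± 0.07, which did not pass the minimum size. Ube2b, the Rad6 homologue that ubiquitinates histones and the replication clamp PCNA, rose more moderately, with 10116, 7935 and 8502 in round sperm cells against 2089, 2379 and 2625 as lowest, median and highest in ES cells. The groups did not overlap, and the log2 difference was 1.89 ± 0.06 (adjusted p = 6.65e-13), against 0.59 ± 0.06 in its other probe set. The remaining called rises among the conjugating enzymes were Ube2f, an E2 for the modifier Nedd8 (log2 difference 1.44 ± 0.05), Ube2v2, a partner of Ube2n in building chains through lysine 63 (1.07 ± 0.04), and Ube2k, which builds chains through lysine 48 (1.03 ± 0.03). The other probe sets of Ube2k were all called lower, from -3.26 to -1.85, and that of Ube2f was not called (-0.20 ± 0.11).

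Among the Usp genes the largest rises were those of Usp2 and Usp44. Usp2, which in mice is needed for normal male fertility, gave 13740, 14388 and 13850 in round sperm cells. Its ES arrays lay between 8.76 and 80.0 with a median of 29.9, and the signal was at least 139.9-fold higher in round sperm cells (adjusted p = 5.93e-12). Usp44, which acts in the mitotic spindle checkpoint and on ubiquitinated histone, gave 5025, 5024 and 5181 in round sperm cells and 5.79, 12.9 and 29.0 as lowest, median and highest in ES cells, at least 50.8-fold higher (adjusted p = 3.94e-15). Both were near background in all 9 ES arrays.

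Usp12, which is activated by the WD-repeat protein Wdr48, gave 8047, 8630 and 9516 in round sperm cells against 223 to 291 in ES cells, with a median of 269.6. It was low but above 100 in all ES arrays, and the log2 difference was 4.97 ± 0.09 (adjusted p = 4.89e-16). The next 5 rises were smaller, and they were chosen among called genes without overlapping arrays. Usp42, a deubiquitinase known in mouse testis, gave 6027, 5832 and 5358 against ES arrays of 742 to 1142, a log2 difference of 2.60 ± 0.06. Usp15, a regulator of transforming growth factor beta signalling, differed by 2.55 ± 0.10 and Usp7, which acts on p53 and its ligase Mdm2, by 2.25 ± 0.04. Usp8, which works on endosomes, differed by 2.24 ± 0.08, and Usp47, which acts in base excision repair, by 1.97 ± 0.06. The other called rises were Usp1, which acts on PCNA and on Fanconi anaemia proteins (1.80 ± 0.04), Usp18, which removes the ubiquitin-like modifier Isg15 (at least 1.345-fold higher), Usp35 (1.62 ± 0.12) and Usp11 (1.02 ± 0.08). Usp18 was barely above background in round sperm cells, with signals of 159.9, 126 and 120.4. Ube2d2b, Ube2u, Usp2, Usp18 and Usp44 passed the filter on low signals only through the round sperm arrays, so that only a gene higher there could pass in this way.

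**Figure D2:**
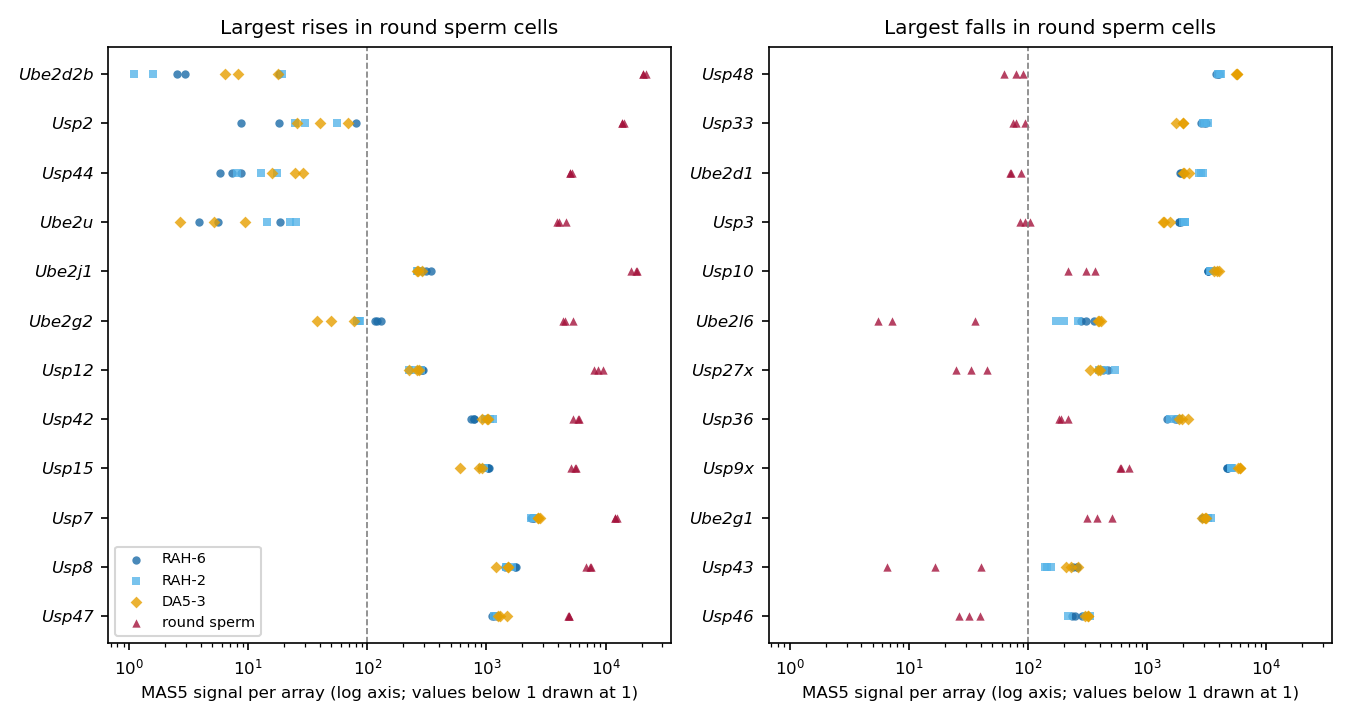
Signals of the 12 largest rises and 12 largest falls in each array (log axis, MAS5 signal; 1 point per array, coloured by group). The round sperm points lie right of all ES points for every rise and left of them for every fall, and the dashed line at 100 marks near-background signals.

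Promoter sequences were examined for 59 of the 72 genes, those with an entry in the RefSeq table for the rat assembly GRCr8, which covers 250 bases before to 50 bases after each gene's start. Each window was searched on both strands for TGACGT, part of the cyclic AMP response element, and for the full palindrome TGACGTCA that holds it. The shorter motif was present in 11.9% of the 59 windows and in 8.22% of all 27457 windows of the table. By call, it was present in 4 of 14 windows of genes that rose in round sperm cells (28.6%: Ube2b, Ube2g2, Ube2j1 and Usp8), in 1 of 18 of genes that fell (5.56%: Usp38) and in 2 of 24 of genes that passed neither way (8.33%: Ube2d2 and Ube2s). The full palindrome was in 0 of the 59 windows, against 1.91% of all windows. CpG dinucleotides numbered 2 to 58 per window with a median of 28, against a median of 7 over all windows. Both motifs hold a CpG, so their shares here and over all windows come from sequences of unlike CpG content. No comparison at like CpG content was made. The first 3 sequences below are windows with the shorter motif, from 3 of the 4 such genes that rose, and the last 3 are those of genes that were near background in ES cells and held no match. The capitals mark the shorter motif on either strand, and each sequence is written along the gene's own strand.
Ube2j1, chr5:52218557-52218856, plus strand: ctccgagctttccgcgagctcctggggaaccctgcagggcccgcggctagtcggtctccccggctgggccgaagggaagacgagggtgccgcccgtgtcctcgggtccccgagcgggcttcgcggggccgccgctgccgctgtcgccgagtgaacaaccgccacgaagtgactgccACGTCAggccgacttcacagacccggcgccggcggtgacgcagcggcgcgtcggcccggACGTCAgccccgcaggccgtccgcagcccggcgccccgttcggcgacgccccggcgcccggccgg
Ube2b, chr10:36763894-36764193, minus strand: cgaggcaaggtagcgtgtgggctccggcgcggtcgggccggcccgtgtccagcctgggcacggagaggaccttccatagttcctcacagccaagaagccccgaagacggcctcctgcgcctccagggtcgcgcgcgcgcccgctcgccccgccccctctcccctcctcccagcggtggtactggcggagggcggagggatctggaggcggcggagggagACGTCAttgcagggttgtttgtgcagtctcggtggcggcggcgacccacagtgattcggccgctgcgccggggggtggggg
Usp8, chr3:134415276-134415575, plus strand: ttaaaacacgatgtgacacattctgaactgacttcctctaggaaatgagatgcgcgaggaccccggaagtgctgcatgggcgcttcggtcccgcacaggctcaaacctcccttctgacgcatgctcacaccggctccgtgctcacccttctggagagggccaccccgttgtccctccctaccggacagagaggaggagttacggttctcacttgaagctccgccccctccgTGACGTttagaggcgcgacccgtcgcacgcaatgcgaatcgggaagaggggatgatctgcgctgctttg
Ube2d2b, chr14:2062351-2062650, minus strand: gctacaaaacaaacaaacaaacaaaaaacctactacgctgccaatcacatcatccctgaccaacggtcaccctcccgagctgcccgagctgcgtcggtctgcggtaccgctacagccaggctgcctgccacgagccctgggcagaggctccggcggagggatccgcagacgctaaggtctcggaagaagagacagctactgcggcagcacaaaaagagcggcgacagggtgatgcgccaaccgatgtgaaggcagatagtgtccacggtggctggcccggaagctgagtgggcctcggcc
Ube2u, chr5:120233499-120233798, plus strand: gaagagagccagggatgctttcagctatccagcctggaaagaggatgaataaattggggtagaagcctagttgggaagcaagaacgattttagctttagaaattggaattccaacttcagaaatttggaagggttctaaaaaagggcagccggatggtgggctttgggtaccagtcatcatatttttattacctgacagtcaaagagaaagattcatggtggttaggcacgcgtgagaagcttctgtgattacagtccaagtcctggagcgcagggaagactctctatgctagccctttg
Usp2, chr8:53310620-53310919, plus strand: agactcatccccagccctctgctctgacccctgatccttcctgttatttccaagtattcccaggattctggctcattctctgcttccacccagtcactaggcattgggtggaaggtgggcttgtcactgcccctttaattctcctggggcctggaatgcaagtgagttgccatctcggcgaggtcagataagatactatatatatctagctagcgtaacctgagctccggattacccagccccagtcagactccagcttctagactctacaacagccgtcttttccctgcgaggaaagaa
The matches nearest to the start lay 15 bases before it in Ube2j1, whose second match lay 74 bases before it, 31 bases before it in Ube2b and 19 in Usp8. Ube2j1 held 49 CpG dinucleotides in its window, Ube2b 34, Usp8 24 and Ube2d2b 22, while Ube2u held 5 and Usp2 held 6. A match is a run of letters in this window and was not tested as a binding site.

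Among the conjugating enzymes that fell, Ube2d1, a broadly acting E2 also known as UbcH5a, gave 70.2, 71.4 and 87.0 in round sperm cells. Over the ES arrays its lowest, median and highest signals were 1870, 2032 and 2948. It was near background in all round sperm arrays, at least 22.5-fold lower than in ES cells (adjusted p = 1.03e-16). Ube2l6, the E2 for Isg15, gave 35.7, 7.25 and 5.48 against 171, 309 and 411 as lowest, median and highest in ES cells, at least 2.95-fold lower (adjusted p = 2.12e-09). Ube2g1, which builds chains through lysine 48, remained detectable in round sperm cells, with 379, 315 and 508 against ES arrays of 2898 to 3448, a log2 difference of -2.93 ± 0.10 (adjusted p = 5.56e-13). Ube2e3 (-2.52 ± 0.08), Ube2r2 (-2.50 ± 0.11), Ube2z (-2.11 ± 0.08) and Ube2e2 (-1.03 ± 0.09) were lower on every round sperm array than on any ES array. Another probe set of Ube2z, at -0.89 ± 0.21 with overlapping arrays, was not called. Ube2ql1 also passed as lower (-1.36 ± 0.30), but its arrays overlapped, with round sperm signals of 6.87 to 39.3 and ES signals of 25.1 to 137, and its mean was under 100 in both groups.

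The largest fall of all was that of Usp48, as read from its brighter probe set. It gave 79.4, 91.4 and 62.7 in round sperm cells and 3796, 4095 and 5697 as lowest, median and highest in ES cells. This was at least 44.65-fold lower in round sperm cells (adjusted p = 3.56e-17), but its other probe set, described below, did not fall. Usp33, which acts on receptors and at the centrosome, gave 94.6, 74.7 and 79.1 against 1739, 2952 and 3219 as lowest, median and highest in ES cells, at least 25.9-fold lower (adjusted p = 1.38e-16). Usp3, a deubiquitinase of histone, gave 95.2, 85.6 and 104 in round sperm cells against ES arrays of 1356 to 2091. Only 1 of its round sperm arrays reached 100, and the log2 difference was -4.01 ± 0.07 (adjusted p = 3.12e-16).

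Usp10, which acts on p53, gave 361, 307 and 215 in round sperm cells against ES arrays of 3215 to 3966, a log2 difference of -3.53 ± 0.11. Usp36, a nucleolar enzyme, had -3.09 ± 0.09 and the X-linked Usp9x had -3.03 ± 0.05. Usp27x, a relative of the histone deubiquitinase Usp22, was at least 4.155-fold lower, Usp46 at least 2.81-fold and Usp43 at least 2.045-fold. All 3 were under 100 in every round sperm array and above 100 in every ES array. Another probe set of Usp46 was not called. Ube2d1, Ube2l6, Ube2ql1, Usp27x, Usp33, Usp43, Usp46 and Usp48 passed the filter on low signals only through ES arrays. Only a gene lower in round sperm cells could pass in this way. The other called falls were Usp28, a partner of the DNA damage protein Tp53bp1 (-2.60 ± 0.06), Usp38 (-2.32 ± 0.05), Usp5, which takes apart free ubiquitin chains (-2.01 ± 0.09), and Usp54 (-1.08 ± 0.08). Of the 4 X-linked genes, Usp9x and Usp27x fell, Usp11 rose and Ube2a had a log2 difference of -0.16, with its other probe set called lower.

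The genes that passed neither way included enzymes of the cell cycle, DNA repair and the proteasome. Ube2c and Ube2s, which work with the anaphase-promoting complex, had log2 differences of 0.50 ± 0.06 and 0.97 ± 0.05, and Ube2t, the Fanconi anaemia E2, had -0.47 ± 0.06. Ube2n, Ube2j2, Ube2o, Usp21 and Usp24 lay between -0.20 and 0.06, and their adjusted p-values were 0.0872 to 0.554. Their arrays overlapped between the groups. Ube2m, the other E2 for Nedd8, had 0.62 ± 0.09. Usp14, a proteasome-bound deubiquitinase, had -0.94 ± 0.04 and Usp39, a splicing factor without protease activity, -0.39 ± 0.06. All 27 lay between -0.97 (Ube2h) and 0.97 (Ube2l3 and Ube2s) in the probe set used. For 10 of them another probe set was called. It was higher for Ube2h (2.91 ± 0.17), Ube2n, Ube2q2 (1.81 ± 0.07), Usp19 (1.08 ± 0.11), Usp20, Usp30 (at least 4.676-fold) and Usp32 (1.73 ± 0.16), and lower for Ube2a, Ube2l3 and Usp24 (-1.53 ± 0.11). By adjusted p alone, with no minimum size, 31 of the 68 were higher and 32 lower, where 38.2% and 55.0% of all genes were.

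Some close relatives within the families had differences of unlike size or direction, and others moved together. Ube2e2 and Ube2e3 both fell, by 1.03 and 2.52 on the log2 scale. Of the Rad6 pair, Ube2b had a log2 difference of 1.89, while Ube2a, with 4281, 4308 and 4304 in round sperm cells and 4440 to 5365 in ES cells, had -0.16 ± 0.05, a sign that turned under median centring (0.17). Both genes have another probe set, at 0.59 for Ube2b and at -1.81 ± 0.06 for Ube2a, where 386, 394 and 378 in round sperm cells stood against 1196 to 1664 in ES cells. Of the endoplasmic reticulum pairs, Ube2j1 had 5.87 against 0.05 ± 0.05 for Ube2j2, and Ube2g2 had 5.60 or 0.81, by probe set, against -2.93 or -0.75 for Ube2g1. Of the Ube2d genes, Ube2d1 was at least 22.5-fold lower in round sperm cells, Ube2d2b at least 209-fold higher, and Ube2d2 had -0.29 ± 0.04 (0.045 under median centring). Ube2d2b is a close copy of Ube2d2, so reads of one by the probes of the other are possible. On the ES arrays, where the Ube2d2 probe set gave 3573 to 4282, the Ube2d2b probe set gave at most 19.4.

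Relatives among the Usp genes also had unlike differences. Usp12 had a log2 difference of 4.97, and Usp46, its closest relative and also an enzyme activated by Wdr48, was at least 2.81-fold lower in round sperm cells. That fall was called in the probe set used, while another probe set of Usp46 was not called. Usp20 had 0.74 ± 0.09, with 786, 838 and 726 in round sperm cells and 361 to 535 in ES cells, where its relative Usp33 was at least 25.9-fold lower. The other probe sets of Usp20 were both called higher, with 3.40 ± 0.19 (1439 ± 135 in round sperm cells against 124.7 ± 32.9 in ES cells, SD) and at least 3.497-fold. Usp25 had 0.44 ± 0.15 with overlapping arrays, and its relative Usp28 had -2.60. Of the relatives Usp15, Usp11 and Usp4, the first 2 passed as higher and Usp4 had -0.23 ± 0.07 (0.10 under median centring). Ube2q1 and Ube2q2 both had small positive differences, 0.34 ± 0.05 and 0.21 ± 0.05, in the probe sets used. The other probe set of Ube2q2 was called higher, at 1.81 ± 0.07. These values were compared as differences of each gene between cell types, since the levels of different probe sets are not on one scale.

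The counts by role below are over few genes, beside 28.9% higher and 43.4% lower over all genes tested, and nothing particular to a role is read from them. By role, 2 of the 6 tested Usp genes that act on histones and chromatin rose (Usp7 and Usp44) and 3 fell (Usp3, Usp27x and Usp36), with Usp21 at -0.20. Of 8 that act in DNA repair and the cell cycle, 4 rose (Usp1, Usp11, Usp12 and Usp47) and 3 fell (Usp28, Usp46 and Usp48), with Usp37 at -0.67. Of 11 that act on membrane traffic and organelles, 3 rose (Usp2, Usp8 and Usp35) and 3 fell (Usp9x, Usp10 and Usp33), with values between -0.66 for Usp6nl and 0.74 for Usp20 for the others. Of 12 broadly acting E2 enzymes, 1 rose (Ube2u) and 5 fell, with a median of -0.63. Ube2d2b, which rose, stands in none of these role lists. Of 6 E2 enzymes that build lysine 48 chains or serve the endoplasmic reticulum, 3 rose (Ube2g2, Ube2j1 and Ube2k) and 2 fell (Ube2g1 and Ube2r2). All counts by role are over the probe set used for each gene. Other probe sets of Ube2k, Usp7 and Usp48, among others, disagree with it, as described below.

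Probe sets of the same gene did not always give the same result. Among 33 genes with more than 1 probe set above the filter, 13 had the same call in all probe sets, 18 had some probe sets called and others not, and Ube2k and Usp7 had probe sets called in opposite directions. Usp9x fell in all 4 of its probe sets, from -3.03 to -5.48 on the log2 scale, Usp42 rose in all 3 of its tested probe sets by 2.05 to 2.60, and Usp2 rose in both. For Usp48 the second probe set gave 3556, 3502 and 3551 in round sperm cells and 3157 to 3497 in ES cells, a log2 difference of 0.11 ± 0.04. The mean of that second probe set over the 12 arrays was 3346, against 3418 for the probe set used, so the choice between them was close and the fall of Usp48 rests on 1 of 2 probe sets.

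For Usp7 the brightest probe set rose by 2.25 on the log2 scale, 1 of the others rose by 1.42, another fell by 1.47 and the last had -0.80. For Ube2k the brightest probe set differed by 1.03, from 6199 ± 450 (SD, n = 9) in ES cells to 12611 ± 171 (SD, n = 3) in round sperm cells. The other 3 probe sets of Ube2k were all called lower, the brightest of them with 80.2, 50.3 and 78.0 in round sperm cells and 735 to 855 in ES cells. Ube2n, whose main probe set had -0.06, had a second one with 7519, 7968 and 7756 in round sperm cells and 389 to 469 in ES cells, a log2 difference of 4.13 ± 0.06. Ube2l3, at 0.97 in its main probe set, had a second one at -3.34 ± 0.08, while the second ones of Ube2f (-0.20 ± 0.11) and Usp38 (0.57 ± 0.10), both called by the probe set used, were not called. The files do not say which transcript forms these probe sets read, and this was not tested.

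**Figure D3:**
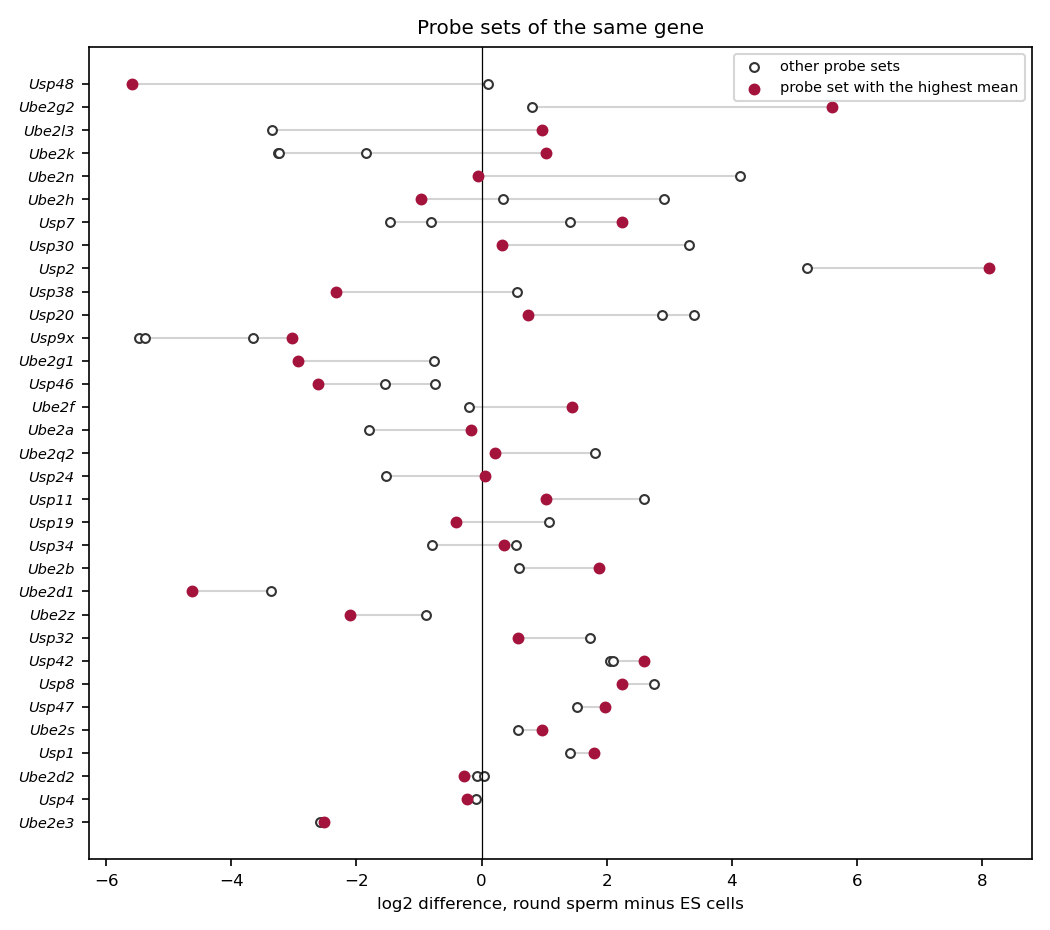
Log2 difference (round sperm cells minus ES cells) of every tested probe set of the 33 genes with more than 1, with filled points for the probe set used, open points for the others and a line over their range. The points of Usp48 lie at -5.59 and 0.11, those of Ube2k run from -3.26 to 1.03 and those of Usp7 from -1.47 to 2.25.

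Other genes of the pathway were counted from lists, and these counts stand beside 28.9% higher and 43.4% lower over all genes tested. Of 7 tested E1 activating enzymes and their subunits, 5 fell in round sperm cells and none rose. Uba1, the main ubiquitin E1, went from 4499 ± 386 (SD, n = 9) to 372 ± 84.9 (SD, n = 3), a log2 difference of -3.56 ± 0.11, and Uba6, the second ubiquitin E1, had -4.19 ± 0.07. Uba3 and Uba2, subunits of the E1 enzymes for Nedd8 and Sumo, had -4.10 ± 0.07 and -2.36 ± 0.05. The list's median was -2.36 beside -0.59 for all genes. Of 9 ubiquitin-like modifiers, 5 fell and none rose, among them Sumo3 (-4.73 ± 0.05) and Sumo2 (-2.99 ± 0.04), while Nedd8 had 0.69 ± 0.04. The ubiquitin genes themselves had no probe set that named only one of them.

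Deubiquitinases of other families moved both ways, with 14 of 26 higher and 9 lower in round sperm cells and a median of 1.11. Otub2 was at least 89.9-fold higher (8992 ± 389.8 in round sperm cells against 43.3 ± 11.96 in ES cells, SD). Cyld, a negative regulator of NF-kappaB signalling, had 6.06 ± 0.13, and Brcc3, a subunit of the BRCA1-A complex, was at least 34.25-fold lower (47.3 ± 6.69 against 3429 ± 180.1, SD). Of 30 partner E3 ligases and E2 relatives, 7 rose and 12 fell, with a median of -0.45, so that the share called was near that of all genes. Mdm2, the ligase of p53, had 2.77 ± 0.04 and Rad18, which works with Ube2b, 2.13 ± 0.06, while Stub1 had -3.49 ± 0.06 and Huwe1 -3.17 ± 0.07.

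The counts against RahES and against DA5-3 separately share the same 3 round sperm arrays. Against RahES, 19 of the 68 genes were higher in round sperm cells and 22 lower, where 28.9% and 43.2% of all genes were. Against DA5-3, 19 were higher and 19 lower, where 29.4% and 43.2% of all genes were. For Ube2d2b the log2 difference was 9.87 against RahES and 9.63 against DA5-3, and for Usp48 it was -5.42 and -5.93.

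Among the ES lines no gene of the group reached a log2 difference of 1. In RahES against DA5-3, 63 of the 72 genes were tested, and 0 passed in either direction at an adjusted p below 0.05 and a log2 difference of at least 1 (limma), where 3.68% of all 9282 genes passed as higher and 2.84% as lower. The differences ran from -0.77 for Ube2ql1, whose RahES signals were all under 100, to 0.83 for Usp11. Ube2ql1 passed the filter only through the DA5-3 arrays, so that only a gene higher there could pass in this way. The differences of the 63 genes were small but the replicates were close. Of the 63, 45 had an unadjusted p below 0.05, where 62.0% of all genes did. By adjusted p alone, 18 were higher and 21 lower in RahES, where 31.1% and 26.1% of all genes were, together 61.9% of the 63 against 57.1% of all genes. RAH-6 against DA5-3 and RAH-2 against DA5-3 also gave 0 passing genes, where 7.56% and 6.45% of all genes passed. In each of them 39 of the 63 had an unadjusted p below 0.05, where 60.6% and 56.5% of all genes did. Fibroblast markers summed to 28836 to 31797 in DA5-3 against 486 to 3145 in the RahES arrays, and the Gapdh ratio was also higher in DA5-3. The part of these measures in the differences between RahES and DA5-3 was not tested.

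Usp48 had the smallest adjusted p between RahES and DA5-3. It gave 3796, 3900 and 3981 in RAH-6, 4136, 3901 and 4095 in RAH-2, and 5697, 5692 and 5584 in DA5-3. Every RahES array lay under every DA5-3 array, with a log2 difference of -0.51 ± 0.04 (adjusted p = 2.87e-07, 6 against 3 arrays). Its second probe set had -0.09 ± 0.04 in the same comparison (adjusted p = 0.0864). Usp11, an X-linked deubiquitinase that acts in DNA repair, gave 986, 1138 and 1175 in RAH-6, 914, 1006 and 1025 in RAH-2, and 607, 550 and 572 in DA5-3. Both haploid lines were above the diploid line on every array, by 0.83 ± 0.07 (adjusted p = 9.34e-07).

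Usp33 gave 3091, 3002 and 2814 in RAH-6 and 3048, 2952 and 3219 in RAH-2, against 1739, 2000 and 1999 in DA5-3. The difference of 0.66 ± 0.06 was again seen in both haploid lines (adjusted p = 9.77e-07). Usp3 was higher in RahES by 0.45 ± 0.05, Ube2q2 by 0.40 ± 0.05 and Ube2h by 0.60 ± 0.07, with no overlap between the arrays of RahES and DA5-3. The other probe sets of Ube2h did not overlap either. That of Ube2q2 did, with 977 to 1111 in RahES and 912 to 1046 in DA5-3. In RAH-6 against DA5-3, Ube2n (-0.64 ± 0.07) and Usp9x (-0.34 ± 0.04) were among the 6 genes with the smallest adjusted p, and in RAH-2 against DA5-3 Ube2d1 (0.44 ± 0.06) was. The arrays overlapped in the other probe set of Ube2n, with 446, 429 and 407 in RAH-6 and 408, 440 and 469 in DA5-3. The largest difference in RAH-6 against DA5-3 was that of Ube2g2, just under 1 on the log2 scale (adjusted p = 0.00187), with 116, 119.7 and 131 in RAH-6 and 49.8, 38.0 and 76.9 in DA5-3, so that this probe set was near background in DA5-3. The other probe set of Ube2g2 was not, with 575 to 631 in RAH-6 and 501 to 553 in DA5-3. The brighter probe set passed the filter among ES arrays only through RAH-6, so that only a gene higher there could pass in this way.

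**Figure D4:**
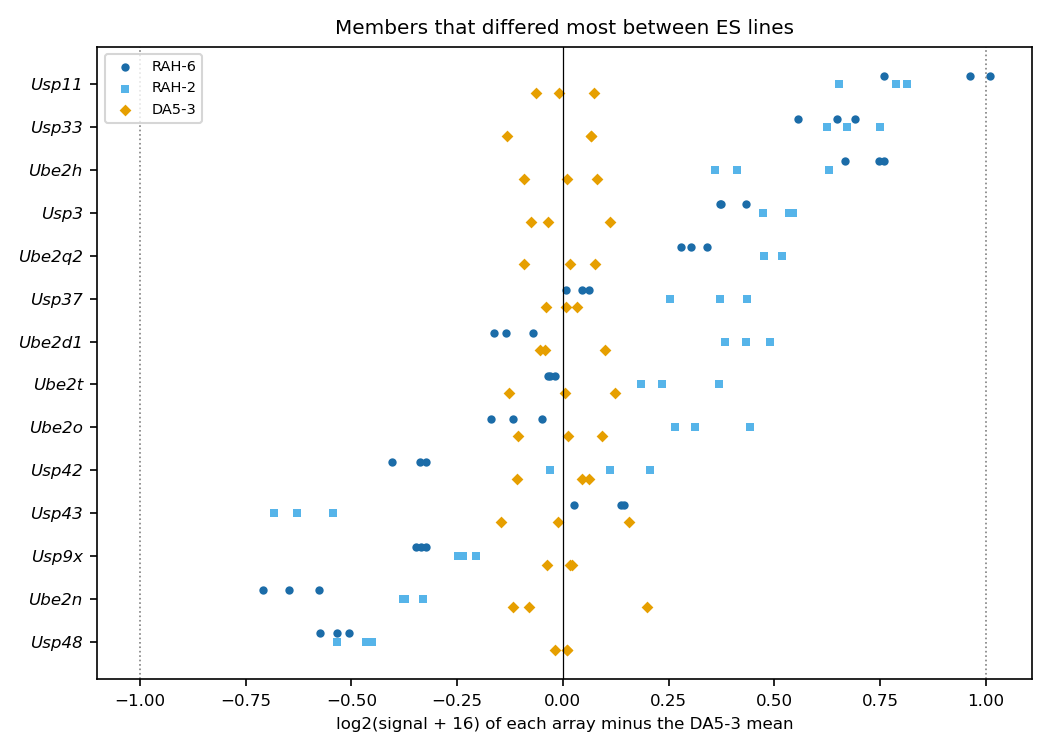
Log2 signal of each ES array minus the DA5-3 mean, for the genes with the 6 smallest adjusted p in each comparison among ES lines (1 point per array, coloured by line). The Usp48 points of both haploid lines lie near -0.5 and those of Usp11 and Usp33 lie above 0, while Ube2d1 separates RAH-2 from RAH-6.

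Among the other genes of the pathway, Tnfaip3, a deubiquitinase of the ovarian tumour family, was higher in RahES than in DA5-3 by 1.22 ± 0.16 on the log2 scale (adjusted p = 3.66e-05). The ligase Ube3a had -1.003 ± 0.07 (adjusted p = 2.21e-07), with 1141 ± 134.8 (SD, n = 6) in RahES and 2299 ± 264.5 (SD, n = 3) in DA5-3. These were the only called genes of 25 tested deubiquitinases of other families and 30 tested ligases in that comparison, and of the E1 list 0 of 7 were called.

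The haploid lines also differed from each other. In RAH-6 against RAH-2, 0 of the 63 genes passed at a log2 difference of at least 1, where 0.797% of all genes did, and 25 had an unadjusted p below 0.05, where 33.6% of all genes did. The arrays of the haploid lines did not overlap for 28 of the 63 genes, where 41.2% of all genes had no overlap. By adjusted p alone 2 were higher and 8 lower in RAH-6, together 15.9% of the 63 against 18.8% of all genes. Ube2d1 gave 1870, 1906 and 1993 in RAH-6 and 2834, 2948 and 2739 in RAH-2, with the DA5-3 arrays between 2015 and 2244. Its log2 difference was -0.56 ± 0.06 (adjusted p = 7.94e-05), with every RAH-6 array under every RAH-2 array. Usp43 gave 238, 259 and 258 in RAH-6, 145, 155 and 139 in RAH-2 and 261, 209 and 231 in DA5-3, a difference of 0.72 ± 0.12 between the haploid lines (adjusted p = 0.00222). Ube2o (-0.45 ± 0.07), Usp42 (-0.45 ± 0.08), Usp37 (-0.32 ± 0.06) and Ube2t (-0.29 ± 0.07) were lower in RAH-6. Fibroblast markers and the Gapdh ratio also differed between these lines, as given above, and their part in these differences was not tested.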

How the data were processed

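Per the labels, total RNA was extracted with Trizol and hybridised to Affymetrix arrays, 12 in all, and signals were made with MAS5 per the submitters' processing notes. No MAS5 version is named there. The deposited values are log2 signals with a minimum of 0, and their linear 2% trimmed means were 500.18 to 500.28. They were taken back to the linear scale, scaled to a trimmed mean of 500, and log2(signal + 16) was used. The deposited report file, whose array names occur in no label, was not used.

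Of 31099 probe sets, 20832 named 1 gene. Entrez identifiers of all 72 genes matched RefSeq (GRCr8), and 0 symbols changed. Genes with a signal of at least 100 in at least 3 arrays were tested with limma 3.58.1 (R 4.3.3, moderated variances with a trend) and p-values were Benjamini-Hochberg adjusted over all genes, in a fit of 12 arrays (10529 genes) for round sperm cells and of the 9 ES arrays (9282 genes) for ES lines. Bounds use a signal of 100. The script was tested on simulated data. Named are the 12 largest rises and falls with no overlap, the 6 smallest adjusted p per ES comparison, paralogs, genes whose probe sets disagree, and up to 4 genes of each other list. Other members are named where their group is counted, after their values were seen. The members, lists and tests were chosen with earlier results of these data known. Promoter sequences are from RefSeq (GRCr8). Alternatives were another offset, filter, normalization, probe set rule, variance model, replicate block and leaving out arrays.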

Additional observations from a re-analysis of the deposited data

Results flagged for a closer look

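Between the haploid lines, 10 genes differed in their change from DA5-3, tested as RAH-6 minus RAH-2 on the log2 scale with limma (adjusted p below 0.05, 3 against 3 arrays). They are 15.9% of the 63 tested, where 18.8% of all genes differed by the same threshold. Ube2d1 differed by -0.56, with RAH-6 at -0.12 and RAH-2 at 0.44 against DA5-3. Ube2o differed by -0.45 (-0.11 and 0.34), Usp42 by -0.45 (-0.36 and 0.10), Usp37 by -0.32 (0.04 and 0.35) and Ube2t by -0.29 (-0.03 and 0.26). Usp43 differed by 0.72, with RAH-6 at 0.10 and RAH-2 at -0.62, and Ube2l6 by 0.56, with RAH-6 at -0.32 and RAH-2 at -0.88. The other 3 were smaller, with -0.23 for Usp34, -0.28 for Ube2n and -0.18 for Ube2q2.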

How the results depend on the processing

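For round sperm cells against ES cells, all 41 calls were shared with the fit without a filter, the fit without a variance trend and the fit with the replicate number as a block (20 higher and 21 lower under the replicate block). The other scalings, offset, filter and probe set rule shared 37 to 39. With any 1 array left out 39 to 41 were shared, and the counts were 19 to 20 higher and 21 lower. The counts were 19 to 20 and 21 to 22 against RahES, and 18 to 20 and 19 to 20 against DA5-3. Same-numbered arrays of different groups did not deviate together (18 pairs, r from -0.0855 to 0.0589). No strong shared effect of the replicate number was seen, but this cannot show that the samples were unpaired. The median of all genes was -0.59, and it was -0.25 under quantile normalization and -0.26 under median centring, so values near 0 change sign with the scaling. Median centring gave 0.17 for Ube2a, 0.045 for Ube2d2 and 0.10 for Usp4, and quantile normalization gave -0.33 for Ube2j2. The mean of all probe sets gave -1.19 for Ube2l3 and -1.83 for Ube2k, since their probe sets disagree, and it ended the calls of Usp7 (0.35), Usp38 and Ube2f and added Ube2n, Ube2q2, Usp30 and Usp32 as higher. Usp11 fell just under 1 without RAH-6 replicate 1 or without round sperm replicate 2 (0.96), and Ube2e2 without the latter (-0.98). Ube2e2 (-0.30), Ube2v2 (0.68), Ube2k (0.58) and Usp54 lost their calls under quantile normalization, and Ube2e2 (-0.70) and Usp54 also under median centring. Usp20 passed under quantile normalization (1.19), median centring (1.07) and the mean of all probe sets (2.34).

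Among the ES lines, RAH-6 against DA5-3 had 1 higher gene under quantile normalization (Ube2g2) and 0 to 2 when 1 array was left out (Ube2g2 or Usp25). RAH-2 against DA5-3 had 0 to 1 lower genes when 1 array was left out, Ube2l6 without RAH-2 replicate 1 and Ube2ql1 without RAH-2 replicate 2, and 1 (Ube2ql1) when 1 array of DA5-3, RAH-2 and round sperm cells each (replicates 1, 2 and 1) were left out together, a setting chosen after seeing the data. The other counts among ES lines stayed at 0 when 1 array was left out. Among ES arrays, Ube2g2 passed the filter only through RAH-6 and Ube2ql1 only through DA5-3. Except where named, the cause of these moves was not tested.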
